A study of Mus musculus with 2 samples.

Results

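The 40 genes described here encode the PI3K, AKT, mTOR and FOXO pathway, which carries signals from antigen receptors, cytokines and nutrients to growth, metabolism and homing in T cells. They were chosen by name, and all 40 were found among the 22609 genes listed. By role they are class I PI3K subunits and adaptors, phosphatases that oppose PI3K, PDK1 and AKT, mTOR complex subunits, the TSC complex and Rheb, substrates of mTOR complex 1, FOXO factors, GSK3 kinases, energy sensors and stress-induced brakes. RNA was measured in CD8+ regulatory T cells, which suppress other lymphocytes, taken by cell sorting from spleens of naive mice at 3 months of age. There was 1 wild-type (WT) library and 1 library of mice with the genotype Tgfbr2-/-Eomes-/-, called DKO below, in which a receptor subunit for TGF-beta and the T-box transcription factor EOMES are both deleted. Neither the promoter or cells behind the deletion, nor the sort markers, nor the number of animals pooled is stated in the labels.

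As background, class I PI3Ks phosphorylate a membrane lipid to make PIP3, which brings AKT to the membrane, where PDK1 and mTOR complex 2 activate it. AKT restrains the TSC complex, which frees the small GTPase RHEB to activate mTOR complex 1, and it drives FOXO factors out of the nucleus. In resting T cells FOXO1 maintains genes for lymph node homing and survival, so the pathway sets quiescence against growth. Much of this control acts on proteins, whereas the values below are transcript levels.

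Gene counts summed to 22307065 for WT and 19661212 for DKO. Levels are in CPM, a gene's counts scaled to the size of its library, after TMM scaling, a method that sets the bulk of genes equal between libraries. With a single library for each genotype, nothing here has been checked in replicates and no p-value is given; bracketed ranges are exact 95% intervals for counting error and compare the libraries only. Transcripts of the deleted genes were reduced but still counted over the whole gene, Eomes at 469 CPM in WT against 179.5 CPM in DKO and Tgfbr2 at 357 CPM in WT against 244 CPM in DKO. The CD8 genes Cd8a (998 CPM in WT against 978 CPM in DKO) and Cd8b1 (1201 CPM in WT against 1220 CPM in DKO) were alike, and Il2rb, which encodes CD122, stood at 2675 CPM in WT against 2213 CPM in DKO. The list of 8 CD8 T cell markers that holds these genes leaned lower in DKO, with a median log2 ratio of DKO over WT of -0.16. In that list 7 ratios were below 0, beside 49.8% of all genes, and 6 intervals lay wholly below 1, beside 35.7%. All of these markers but Ikzf2 reach 100 CPM, and among all genes at that abundance the shares were 65.1% and 54.7%.

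Markers of other cells were present too, mostly at more CPM in DKO. Counts of higher and lower genes in this paragraph are at 1.5-fold, beside 17.7% higher and 8.41% lower over all genes. Myeloid markers summed to 1377 CPM in WT and 3680 CPM in DKO, with 10 of 12 at least 1.5-fold higher, and dendritic cell markers to 483 and 1473 CPM, with 8 of 9. For NK cells the sums were 1104 and 1237 CPM (8 of 10 higher, 2 lower). These NK cell sums include the deleted gene Eomes, at 469 CPM in WT against 179.5 CPM in DKO, which is among the lower genes. For CD4 and FOXP3 T cells the sums were 109.5 and 278 CPM (7 of 9 higher). B cell markers were split, 3 higher and 2 lower of 8 measured. Their sum was lower, at 138 and 96.2 CPM, and most of it in WT was Cd22, at 82.8 CPM in WT against 24.1 CPM in DKO. The B cell gene Ebf1 was at 0 in DKO. Plasma cell markers summed to 308 and 553 CPM. Erythroid and platelet markers summed to 16.2 and 37.0 CPM, with 5 of 6 measured genes higher. Of that list, Hba-a1 and Hbb-b1 were listed at 0 in both libraries. Of 24 proliferation genes 20 were higher. In bulk RNA, fewer cells of a type and less RNA per cell cannot be told apart, and the part of other cells in the differences below was not tested.

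The pathway genes differed little between the libraries, and under TMM scaling those that differed leaned lower in DKO. Their median log2 ratio of DKO over WT was -0.10, where that of all 11735 genes reaching 1 CPM in a library was 0.00. In 28 of the 40 it was below 0, beside 49.8% of all genes; on the scale of T cell receptor genes described further on it was below 0 in 13. Ddit4 and Rps6kb1 were lower by 1.5-fold or more with an interval that left out 1, so 2 of 40, beside 8.41% of all genes. Deptor alone was as far in the other direction, 1 of 40 beside 17.7%. It was also the single gene beyond 2-fold higher, beside 11.6% of all genes, and 0 of 40 were beyond 2-fold lower, beside 3.6%.

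Scarce genes spread more widely and leaned upwards, so the pathway genes were also set against genes of like abundance. Of the 40, 38 reached 20 CPM in a library, and their median log2 ratio was -0.12, where that of all 7555 such genes was -0.05. Of these 38, 2 were lower and 0 higher by 1.5-fold, beside 4.63% and 7.69% of genes at that abundance. Intervals lay wholly below 1 for 21 of the 40, beside 35.7% of all genes, and wholly above 1 for 7, beside 35.8%. At 20 CPM these became 21 and 6 of 38, beside 43.2% and 31.2%. Most of the pathway thus moved by less than 1.5-fold. More genes lay on the lower side under TMM, and the balance reverses on the scale of T cell receptor genes, with 9 intervals below 1 and 22 above.

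**Figure D1:**
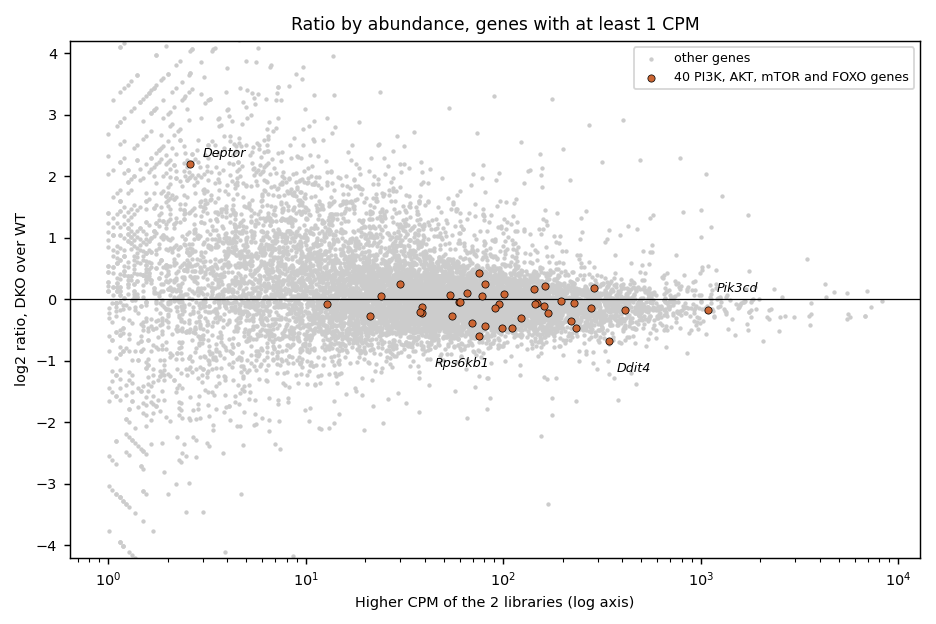
The log2 ratio of DKO over WT (vertical axis) against the higher CPM of the 2 libraries (horizontal log axis), for genes that reach 1 CPM, with 1 library per genotype. Grey points are other genes and orange points the 40 pathway genes; all but Deptor, at the left, lie within 1 unit of 0, and 220 genes beyond 4.2 in either direction are outside the axis.

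The choice of scale decides the direction of the small ratios. When 24 genes of the T cell receptor complex and its signalling were made to set the scale, here called the T-cell scale, every log2 ratio moved up by 0.21. The median over all genes became 0.21 and that of the pathway genes 0.11, so the gap between them stayed at -0.10, as with total counts and DESeq2 size factors. On the T-cell scale 15 of the 40 log2 ratios changed sign, and over all genes 2889 were higher and 557 lower by 1.5-fold, compared with 2073 and 987 under TMM.

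Intervals kept to the same side of 1 under all 4 scalings for 9 lower genes, beside 18% of all genes, and for 7 higher ones, beside 35.8%. From TMM, log2 ratios moved up by 0.048 with total counts, 0.0012 with DESeq2 size factors and 0.21 on the T-cell scale. An interval above 1 under TMM therefore had to stay above 1. The criterion could remove lower genes only, and the 7 higher genes are those already above 1 under TMM. On the lower side were Ddit4, Rps6kb1, Rictor, Foxo1, Gsk3b, Sesn3, Tsc2, Foxp1 and Pik3ca. On the higher side were Deptor, Pik3ap1, Rheb, Eif4ebp1, Prkag1, Akt1 and Pik3cg. The lower genes other than Ddit4 have 6.34 to 9.50 kb of exon, whereas Prkag1, Rheb, Eif4ebp1, Akt1 and Pik3ap1 have 1.65 to 4.48 kb. Against this order, Ddit4 has 1.755 kb, and Deptor and Pik3cg of the higher side have 8.87 and 6.22 kb. The part of transcript length or RNA quality in these ratios, and in the shares of counts below, was not tested. Below, a gene is called lower or higher in DKO only if it is among these 9 and 7, and the other 24 are given by their values.

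**Figure D2:**
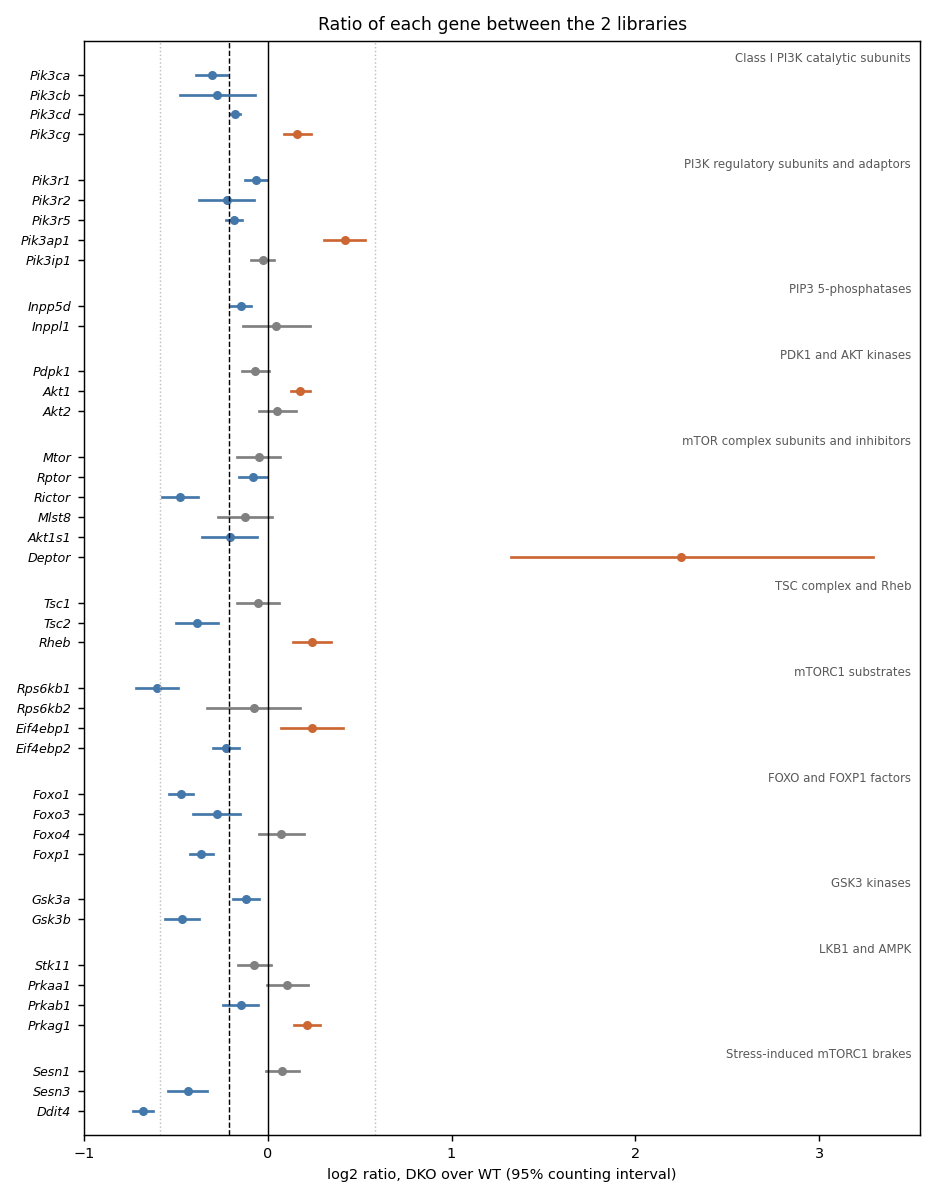
The log2 ratio of DKO over WT for each of the 40 genes by role, from the counts without a prior count, with its exact 95% counting interval; blue intervals lie below 0, orange ones above 0 and grey ones hold 0. The dashed line is where 0 falls on the T-cell scale and dotted lines mark 1.5-fold: Ddit4 and Rps6kb1 pass the lower one, Deptor stands alone at the right, and 15 points lie between the dashed and the solid line.

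Promoter sequences are shown because the deleted genes and the pathway's own FOXO factors act on DNA through short motifs. RefSeq start sites (GRCm38.p6, a later build than the mm9 of the counts) were at hand for 36 of the 40 genes, in 49 windows of 250 bases before the start. Both strands were searched for the forkhead motif TGTTTAC that FOXO factors bind, the T-box half-site GGTGTGA of EOMES and its relatives, the short SMAD element CAGAC of TGF-beta signalling and the E-box CACGTG; none of these contains another. The forkhead motif was in 2 windows (4.08%, beside 3.17% of all 32851 windows) and the T-box half-site in 1 (2.04%, beside 3.33%). The SMAD element was in 23 (46.9%, beside 42.2%) and the E-box in 2 (4.08%, beside 6.02%). Forkhead matches were in Akt1 and Pik3cg, the T-box match was in Gsk3a, and E-box matches were in Pik3ap1 and Rheb. A match is a run of letters, not a site shown to be bound. Of the windows printed here, 2 belong to higher genes and hold a match, in capitals, and 2 belong to lower genes and hold none of the 4 motifs. These windows do not stand for all lower genes. SMAD elements were also in windows of the lower genes Pik3ca, Gsk3b, Foxp1 and Sesn3, while those of Rps6kb1, Rictor and Tsc2 held no match. Whether matches go with direction was not tested. Each runs 5′ to 3′ on the gene's strand and stops before the first annotated exon, which leaves 249 bases for Foxo1 and 186 for Ddit4, although the motif search covered all 250. In the Pik3ap1 window SMAD elements are left in lower case.
Akt1, chr12:112674885-112675134, minus strand, forkhead motif in capitals: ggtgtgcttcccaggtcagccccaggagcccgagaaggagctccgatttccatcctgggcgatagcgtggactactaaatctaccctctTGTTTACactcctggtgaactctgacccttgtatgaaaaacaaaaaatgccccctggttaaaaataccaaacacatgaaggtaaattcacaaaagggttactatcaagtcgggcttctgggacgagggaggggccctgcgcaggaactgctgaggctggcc
Pik3ap1, chr19:41385103-41385352, minus strand, E-box in capitals: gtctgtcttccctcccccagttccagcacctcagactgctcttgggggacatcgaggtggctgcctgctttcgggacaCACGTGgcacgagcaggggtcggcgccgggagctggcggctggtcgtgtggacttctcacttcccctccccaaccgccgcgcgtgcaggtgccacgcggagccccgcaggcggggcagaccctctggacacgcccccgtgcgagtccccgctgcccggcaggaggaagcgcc
Foxo1, chr3:52268087-52268335, plus strand, no match: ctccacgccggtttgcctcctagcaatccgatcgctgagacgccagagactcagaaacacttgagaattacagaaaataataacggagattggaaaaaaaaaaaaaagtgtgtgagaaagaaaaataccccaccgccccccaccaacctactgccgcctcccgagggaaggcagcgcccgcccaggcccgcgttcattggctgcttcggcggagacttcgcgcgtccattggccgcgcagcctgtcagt
Ddit4, chr10:59951835-59952020, minus strand, no match: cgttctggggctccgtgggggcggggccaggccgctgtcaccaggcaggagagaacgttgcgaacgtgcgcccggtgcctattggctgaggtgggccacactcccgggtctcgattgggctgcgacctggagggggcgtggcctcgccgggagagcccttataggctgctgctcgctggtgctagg
Counted from the start site, the Akt1 match begins at -161 and the E-box of Pik3ap1 at -172.

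Among catalytic subunits of class I PI3K, the leukocyte isoform p110-delta dominated in both libraries. Its gene Pik3cd held 84.6% of the family's counts per length in WT and 83.2% in DKO, and at 205 and 181 CPM per kb of exon it was the most abundant of the 40 genes. Its level was 1093 CPM in WT against 965 CPM in DKO, a log2 ratio of -0.18 that turned to 0.03 on the T-cell scale.

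The other catalytic isoforms moved in different directions. Pik3cg, the gene of p110-gamma, which acts downstream of G protein-coupled receptors, stood at 128 CPM in WT against 143 CPM in DKO, or 1.12-fold higher (1.06 to 1.18). Pik3ca, the gene of the widely expressed p110-alpha, stood at 123 CPM in WT against 99.9 CPM in DKO, or 1.23-fold lower (1.16 to 1.31). For Pik3cb, which encodes p110-beta and had the lowest level per length of the family, 21.1 CPM in WT against 17.5 CPM in DKO gave a log2 ratio of -0.27, or -0.06 on the T-cell scale.

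Shares of a family's counts do not depend on scaling. Of the 4 catalytic genes together, Pik3cg made up 9.38% in WT (9.05 to 9.71) and 11.7% in DKO (11.3 to 12.1). Pik3cd made up 80.0% (79.6 to 80.5) and 78.7% (78.2 to 79.3), and Pik3ca 9.03% (8.71 to 9.36) and 8.15% (7.81 to 8.50). The gamma isoform therefore took a larger part of catalytic transcripts in DKO, beyond counting error. Myeloid cells also use Pik3cg, and their summed markers were 2.67-fold higher in DKO; their part in this shift was not tested.

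The regulatory subunits lay near each other, slightly below 0 under TMM and, for 2 of them, above 0 on the T-cell scale. Pik3r5 encodes p101, a partner of p110-gamma; it stood at 414 CPM in WT against 364 CPM in DKO, with log2 ratios of -0.18 under TMM and 0.03 on the T-cell scale. Pik3r1, which encodes p85-alpha, stood at 227 CPM in WT against 217 CPM in DKO, with -0.06 and 0.15. Pik3r2, the gene of p85-beta, stood at 38.9 CPM in WT against 33.4 CPM in DKO, with -0.22 and -0.01. Pik3ip1, whose product restrains PI3K at the membrane of resting T cells, gave a ratio of 0.982 (0.94 to 1.03) from 196 CPM in WT against 193 CPM in DKO, an interval that holds 1.

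Pik3ap1 had the highest ratio of the PI3K subunits and adaptors among the 40 genes. It encodes BCAP, an adaptor that couples receptors to PI3K and is known from B cells, NK cells and myeloid cells. Its 1235 counts in WT and 1504 in DKO correspond to 56.3 and 75.2 CPM, an increase of 1.34-fold (1.24 to 1.44). Markers of cells that use BCAP differed too. Higher were the myeloid genes Lyz2 (495 CPM in WT against 1000 CPM in DKO) and S100a9 (261 CPM in WT against 1066 CPM in DKO), and the NK cell genes Tyrobp (158 CPM in WT against 344 CPM in DKO) and Klrb1c (121 CPM in WT against 208 CPM in DKO). Klre1 of the NK cell list, named after its value was seen, was lower (150.3 CPM in WT against 93.1 CPM in DKO), as was the deleted gene Eomes, which that list also holds. Among B cell genes Cd79b stood at 36.6 CPM in WT against 44.6 CPM in DKO and Cd22 at 82.8 CPM in WT against 24.1 CPM in DKO. What these cells contributed to Pik3ap1 was not tested.

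The phosphatases that remove the 5-phosphate of PIP3 were close to level. Inpp5d, the gene of the blood cell phosphatase SHIP1, stood at 277 CPM in WT against 250.4 CPM in DKO, with log2 ratios of -0.15 under TMM and 0.06 on the T-cell scale. Its relative Inppl1, the gene of SHIP2, gave 23.2 CPM in WT against 24.0 CPM in DKO and a ratio of 1.03 (0.909 to 1.17). Per length Inpp5d held 92.4% of the pair's counts in WT and 91.4% in DKO. The intervals of its share of counts, 91.6 to 92.9 and 90.5 to 92.0%, overlap, but the odds ratio of 0.875 (0.768 to 0.997) leaves out 1.

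Of the central kinases, Akt1 was slightly higher. From 5580 counts in WT and 5752 in DKO its level came to 254 and 288 CPM, an increase of 1.13-fold (1.09 to 1.17). Akt2, the isoform best known from insulin action, was at 74.9 CPM in WT against 77.6 CPM in DKO, a ratio of 1.04 (0.967 to 1.11). Pdpk1, which encodes the AKT-activating kinase PDK1, was at 147 CPM in WT against 140.4 CPM in DKO, a ratio of 0.954 (0.907 to 1.00). The intervals of the latter pair hold 1.

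**Figure D3:**
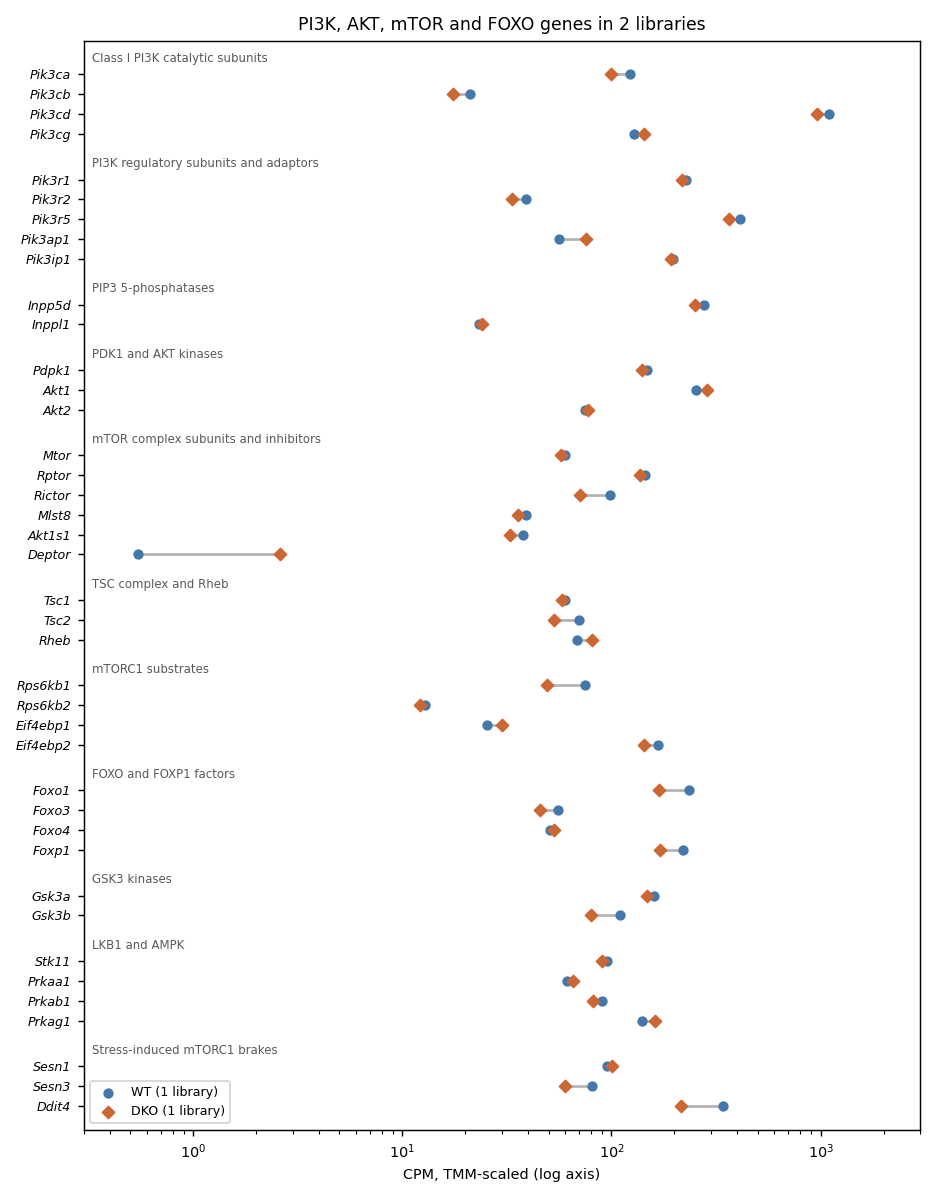
CPM of each of the 40 genes in the WT library (blue circles) and the DKO library (orange diamonds) on a log axis, grouped by role; a grey line joins the 2 values of a gene and there is 1 library per genotype. For most genes the symbols touch or nearly touch, while Deptor, Ddit4, Rps6kb1, Rictor, Foxo1 and Gsk3b are visibly apart, and only Deptor lies under 10 CPM.

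Within the mTOR complexes, the defining subunit of complex 2 was lower while that of complex 1 was nearly level. Rictor, the scaffold of complex 2, dropped from 2151 to 1409 counts and from 98.1 to 70.5 CPM, 1.39-fold lower (1.30 to 1.49). Rptor, which encodes RAPTOR of complex 1, stood at 145 CPM in WT against 138 CPM in DKO, with log2 ratios of -0.08 under TMM and 0.13 on the T-cell scale. Of the counts of this pair, Rictor made up 40.3% in WT (39.0 to 41.6) and 33.9% in DKO (32.4 to 35.3). The odds that a count came from Rictor were 0.759 (0.698 to 0.826) times as high in DKO, a shift that no scaling alters. Rictor is the longer of the pair, with 9.31 kb of exon against 6.59 kb for Rptor, and the part of length was not tested.

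Mtor and Mlst8, whose products both complexes share, were close to level. Mtor, the kinase itself, stood at 59.6 CPM in WT against 57.6 CPM in DKO, a ratio of 0.966 (0.892 to 1.05). Mlst8, a small subunit bound to the kinase, stood at 38.9 CPM in WT against 35.7 CPM in DKO, a ratio of 0.918 (0.83 to 1.02); exons of Bricd5 on the opposite strand cover 25.6% of its exon length. Akt1s1 encodes PRAS40, an inhibitor of complex 1 that AKT inactivates, and at 37.8 CPM in WT against 32.8 CPM in DKO its log2 ratio was -0.21, or 0.0039 on the T-cell scale.

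Deptor, the gene of an inhibitor that binds mTOR in both complexes, was scarcely expressed. It had 12 counts in WT and 52 in DKO, that is 0.547 and 2.60 CPM, for a 4.75-fold increase (2.50 to 9.79). It reached the minimum of 1 CPM only through DKO, where it was high, so a difference was built into its being measured. The 1782 genes between 1 and 5 CPM had a median log2 ratio of 0.46. At 0.0616 and 0.293 CPM per kb Deptor was the least abundant of the 40 genes in both libraries.

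Upstream of complex 1, the brake and the switch it acts on lay on opposite sides. Tsc2, the part of the TSC complex that turns RHEB off, went from 1527 to 1065 counts and from 69.6 to 53.3 CPM, 1.31-fold lower (1.21 to 1.41). Its partner Tsc1 stayed at 60.2 CPM in WT against 58.1 CPM in DKO, a ratio of 0.965 (0.891 to 1.05). Rheb, the GTPase that activates complex 1, went from 1493 to 1608 counts and from 68.1 to 80.4 CPM, 1.18-fold higher (1.10 to 1.27).

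Counted within the pair, Tsc1 made up 46.4% in WT (44.5 to 48.2) and 52.2% in DKO (50.1 to 54.3). The TSC pair thus shifted towards Tsc1 beyond counting error. Exons of Pkd1 on the opposite strand cover 10.9% of the exon length of Tsc2, and with no strand setting stated, reads from there cannot be told apart.

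Downstream of complex 1, the S6 kinases differed by isoform. Rps6kb1, the gene of S6K1, dropped from 1643 to 988 counts and from 74.9 to 49.4 CPM, 1.52-fold lower (1.40 to 1.64). Rps6kb2, the gene of S6K2, stood at 12.9 CPM in WT against 12.2 CPM in DKO, a ratio of 0.949 (0.797 to 1.13); exons of Ptprcap cover 20.2% of its length on the opposite strand. Rps6kb1 made up 85.4% of the pair's counts in WT (83.7 to 86.9) and 80.2% in DKO (77.9 to 82.4). The ratio of Rps6kb1 lies close to the 1.5-fold limit, and with total counts as the scale it no longer passed.

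The translation repressors 4E-BP1 and 4E-BP2, which complex 1 releases by phosphorylation, diverged. Eif4ebp1 went from 25.3 to 30.0 CPM, 1.18-fold higher (1.05 to 1.33). Eif4ebp2, the more abundant per length, stood at 168 CPM in WT against 143 CPM in DKO, with a log2 ratio of -0.23 under TMM and -0.02 on the T-cell scale. Eif4ebp1 made up 13.1% of the counts of the pair in WT (12.1 to 14.2) and 17.3% in DKO (16.1 to 18.6).

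**Figure D4:**
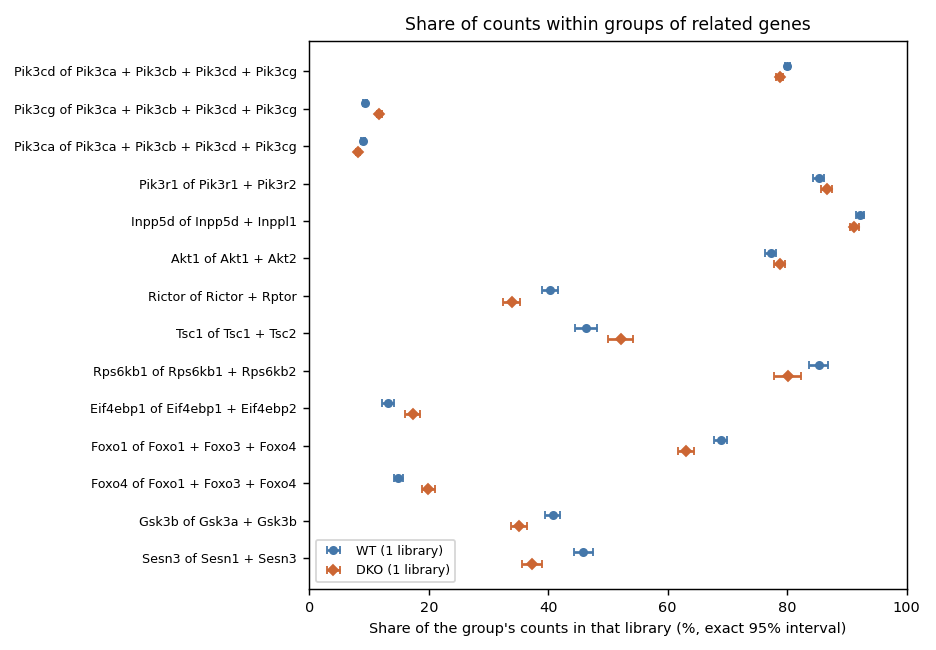
Percentage of a group's counts that came from the gene named first, in the WT library (blue circles) and the DKO library (orange diamonds), with exact 95% counting intervals; library scaling does not change these shares. Intervals of the 2 libraries overlap for Pik3r1, Inpp5d and Akt1, although the odds ratios of these, 1.12 (1.0006 to 1.24), 0.875 (0.768 to 0.997) and 1.09 (1.01 to 1.18), leave out 1, and are separate for the other groups drawn, among them Rictor (40.3% and 33.9%) and Sesn3 (45.8% and 37.2%). Not drawn are the shares of Pik3cb and Foxo3, whose odds ratios, 0.92 (0.80 to 1.06) and 1.06 (0.962 to 1.16), hold 1 in their intervals.

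Of the FOXO factors, Foxo1 was lower and its share of the family shrank. Foxo1, which maintains homing and survival genes of naive and memory T cells, dropped from 5143 to 3381 counts and from 234 to 169 CPM, 1.39-fold lower (1.33 to 1.45). Foxo3, a relative with roles in T cell survival, stood at 55.3 CPM in WT against 45.6 CPM in DKO, with log2 ratios of -0.28 under TMM and -0.07 on the T-cell scale. Foxo4 stood at 50.7 CPM in WT against 53.4 CPM in DKO, a ratio of 1.05 (0.966 to 1.14) whose interval holds 1.

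By share of the 3 genes' counts, Foxo1 made up 68.9% in WT (67.8 to 69.9) and 63.1% in DKO (61.8 to 64.4). Foxo4 made up 14.9% (14.1 to 15.7) and 19.9% (18.8 to 21.0). Foxo3 held 16.2% and 17.0%, with overlapping intervals. Foxp1, a forkhead factor of quiescent naive T cells, moved with Foxo1: it went from 4814 to 3418 counts and from 219 to 171 CPM, 1.28-fold lower (1.23 to 1.34). The antisense transcript Gm20402 covers 7.78% of the exon length of Foxo1.

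GSK3 kinases, which AKT inhibits, also differed by isoform. Gsk3b dropped from 2421 to 1599 counts and from 110.4 to 80.0 CPM, 1.38-fold lower (1.29 to 1.47). Gsk3a stood at 161 CPM in WT against 148 CPM in DKO, with log2 ratios of -0.12 under TMM and 0.09 on the T-cell scale; the antisense transcript 9130221H12Rik covers 19.3% of its exon length. Of the pair's counts, Gsk3b made up 40.7% in WT (39.5 to 42.0) and 35.1% in DKO (33.7 to 36.5), so the balance moved towards Gsk3a.

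LKB1 and AMPK, which restrain complex 1 when energy is short, were close to level apart from Prkag1. Stk11, the gene of LKB1, stood at 94.9 CPM in WT against 90.3 CPM in DKO, a ratio of 0.951 (0.893 to 1.01). Prkaa1, the catalytic AMPK subunit of T cells, stood at 61.1 CPM in WT against 65.8 CPM in DKO, a ratio of 1.08 (0.997 to 1.16). Prkab1, a scaffold subunit, stood at 90.5 CPM in WT against 81.7 CPM in DKO, with log2 ratios of -0.15 under TMM and 0.06 on the T-cell scale.

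Prkag1, the subunit that senses AMP, went from 3066 to 3244 counts and from 139.8 to 162 CPM, 1.16-fold higher (1.10 to 1.22). The antisense transcript B130046B21Rik covers 44.2% of its exon length, the largest such overlap of the 40, and its reads cannot be told apart from those of Prkag1.

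The stress-induced brakes on complex 1 held the lowest ratio of the pathway. Ddit4 encodes REDD1, which hypoxia, glucocorticoids and energy stress induce and which acts through the TSC complex. It dropped from 7503 to 4280 counts and from 342 to 214 CPM, 1.60-fold lower (1.54 to 1.66). On the T-cell scale this fell short of 1.5-fold, at a log2 ratio of -0.47. Per length Ddit4 came next after Pik3cd in both libraries, at 195 and 121.98 CPM per kb.

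The sestrins, sensors of stress and amino acids, again diverged. Sesn3, a FOXO target, dropped from 1777 to 1199 counts and from 81.0 to 60.0 CPM, 1.35-fold lower (1.25 to 1.45). Sesn1 stood at 95.7 CPM in WT against 101 CPM in DKO, a ratio of 1.06 (0.994 to 1.12). Sesn3 made up 45.8% of the counts of this pair in WT (44.3 to 47.4) and 37.2% in DKO (35.6 to 38.9), the widest change in percentage points of the 16 shares computed.

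Per length, the upper end of the pathway was reordered a little. In WT, Pik3r5 and Akt1 were level at 94.7 and 94.6 CPM per kb, ahead of Prkag1 at 84.6. In DKO, Akt1 at 107 and Prkag1 at 98.2 both stood above Pik3r5 at 83.3. At the lower end, Inppl1, Pik3cb and Rps6kb2 (4.57, 3.26 and 2.80 CPM per kb in WT) came just above Deptor, in the same order in DKO but with Pik3cb (2.69) and Rps6kb2 (2.66) nearly level. Mtor was low for its length, at 6.79 and 6.56 CPM per kb.

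Beyond the 40 genes, lists of other pathway genes are read against the same shares of all genes, 17.7% up and 8.41% down by 1.5-fold. Of 14 other PI3K and lipid phosphatase genes measured, 4 were at least 1.5-fold up, 1 down and 9 neither, around a median log2 ratio of 0.05. Inpp4a and Inpp4b, whose products take the 4-phosphate off PI3K lipids, were both up, Inpp4a by 2.62-fold (2.10 to 3.30) at 5.15 CPM in WT against 13.5 CPM in DKO and Inpp4b by 1.82-fold (1.67 to 2.00) at 34.6 CPM in WT against 63.2 CPM in DKO. Pik3r6, the gene of another regulatory partner of p110-gamma, had 12 counts in WT and 109 in DKO, up by 9.97-fold (5.48 to 19.9). Pik3c2a, a class II PI3K, gave a ratio of 1.37 (1.24 to 1.52). The remaining calls, Pik3c2b and Pik3r3, were named after their values were seen. Pik3c2b had 0 counts in WT and 50 in DKO, and the lower limit of its interval was 14.3-fold higher in DKO. Pik3r3 was down by 2.30-fold with 58 and 23 counts. Pik3r6 and Pik3c2b, like Deptor, reached 1 CPM only through DKO, so a difference was built into their being measured.

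Regulators and targets of AKT lay on both sides. Of 14 measured, 5 were up by 1.5-fold, 0 down and 9 neither, beside 17.7% up and 8.41% down over all genes, and intervals lay wholly above 1 for 6 and below 1 for 4. The median log2 ratio was 0.06, and the same 5 were called under all 4 scalings. Phlpp2, a phosphatase that inactivates AKT, was up by 2.00-fold (1.74 to 2.30) at 14.3 CPM in WT against 28.6 CPM in DKO, and its relative Phlpp1, named after its value was seen, by 1.77-fold (1.48 to 2.11). Sgk3, a kinase related to AKT, was up by 2.27-fold (2.01 to 2.57) at 17.6 CPM in WT against 39.9 CPM in DKO. Tbc1d4, an AKT substrate in glucose transporter traffic, was up by 2.24-fold (2.00 to 2.50) at 22.1 CPM in WT against 49.4 CPM in DKO. Trib3, a stress gene whose product binds AKT, had 14 counts in WT and 105 in DKO, up by 8.23-fold (4.69 to 15.6), but it too reached 1 CPM only through DKO. On the other side, Sgk1, a kinase related to AKT and named after its value was seen, stood at 168 CPM in WT against 113 CPM in DKO, a ratio of 0.669 (0.634 to 0.705) just short of the limit.

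Most nutrient sensing genes moved by less than 1.5-fold. Of 31 other mTOR complex and nutrient sensing genes measured, 2 were up by 1.5-fold, 2 down and 27 neither. Over all genes the shares were 17.7% up and 8.41% down. The list's median log2 ratio was -0.08. Rragd, one of the Rag GTPases that bring complex 1 to the lysosome, was down by 2.26-fold (1.91 to 2.67) at 22.3 CPM in WT against 9.90 CPM in DKO. Telo2, whose product helps to assemble mTOR, was down by 1.5-fold (1.35 to 1.67), a call lost with total counts and on the T-cell scale. Castor1, the gene of an arginine sensor listed under the older symbol Gatsl3, was up by 2.22-fold (1.79 to 2.76) at 5.93 CPM in WT against 13.2 CPM in DKO, and Prr5l, whose product binds complex 2, by 2.18-fold (1.87 to 2.55) at 11.1 CPM in WT against 24.2 CPM in DKO.

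Of 10 other AMPK and LKB1 genes measured, 0 were up by 1.5-fold, 1 down and 9 neither, around a median log2 ratio of 0.10. Camkk1, a calcium-dependent kinase, was the one down, by 1.54-fold (1.21 to 1.98), which did not hold with total counts or on the T-cell scale. Strada, a partner of LKB1, gave a ratio of 1.24 (1.12 to 1.37), Cab39l, a scaffold of LKB1, 1.20 (1.11 to 1.29) and the AMPK subunit gene Prkab2 1.19 (0.941 to 1.51).

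Readouts of complex 1 changed little. Of 18 mTORC1 effector and output genes measured, 1 was up by 1.5-fold, 0 down and 17 neither, around a median log2 ratio of -0.07. Pdcd4, a translation inhibitor that S6K1 marks for degradation, stood at 550.0 CPM in WT against 376 CPM in DKO, a ratio of 0.683 (0.664 to 0.703). Slc7a5, a subunit of a leucine transporter, gave 0.783 (0.723 to 0.848), and Rps6, the ribosomal protein that S6 kinases phosphorylate, 0.766 (0.683 to 0.857). Rps6 has many processed copies, so its count is uncertain.

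Genes known as FOXO targets had no single direction, with 12 below 0 and 12 above. Of 24 measured, 3 were up by 1.5-fold, 3 down and 18 neither, around a median log2 ratio of -0.01. Those down included the chemokine receptor gene Ccr7, by 1.79-fold (1.72 to 1.87) at 326 CPM in WT against 182 CPM in DKO, and, named after its value was seen, the transcription factor gene Tcf7, by 1.5-fold. On the T-cell scale 1 target, Ccr7, was down by 1.5-fold and 5 were up. Gadd45a, a DNA damage gene, was up by 1.93-fold (1.56 to 2.39), and Bnip3, named after its value was seen, had 27 counts in WT and 81 in DKO. Sirpa, which myeloid cells express strongly, was up by 1.85-fold (1.74 to 1.96) at 75.7 CPM in WT against 139.7 CPM in DKO, and the part of those cells in it was not tested.

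**Figure D5:**
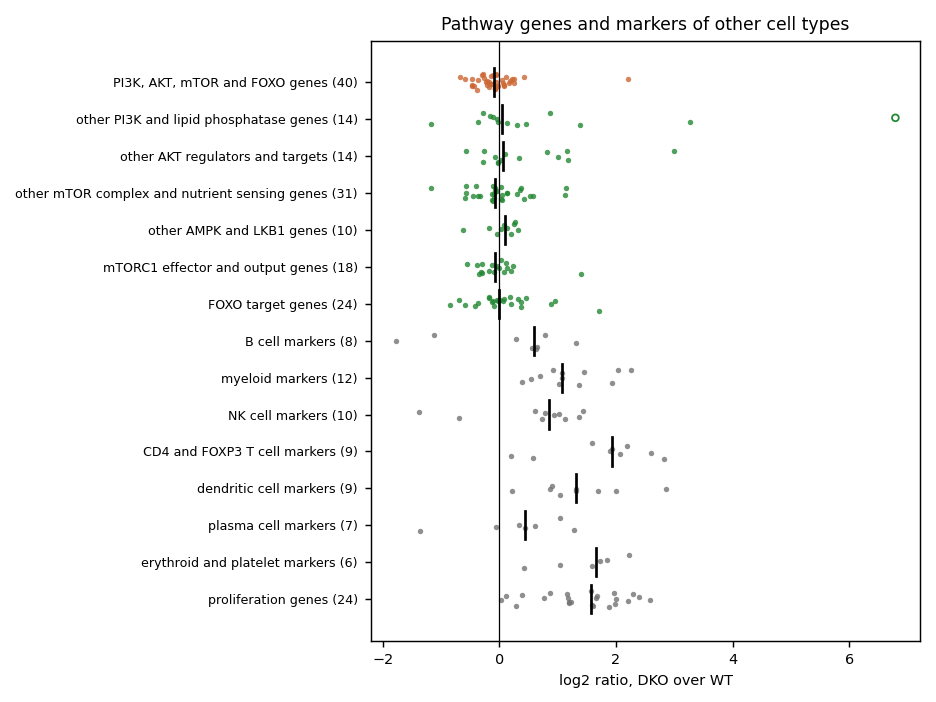
Log2 ratios of DKO over WT for each measured gene (points) by list, with the list's median as a black bar and the number of measured genes in brackets; orange is the 40 pathway genes, green other genes of the pathway, and grey markers of other cell types and proliferation. The open point is Pik3c2b, at 0 counts in WT, whose place depends on the prior count. Pathway medians lie close to 0, while those of the marker lists run from 0.44 to 1.94.

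The marker lists sat well to the right of the pathway lists. Their median log2 ratios were 0.44 for plasma cells, 0.59 for B cells, 0.85 for NK cells, 1.07 for myeloid cells, 1.31 for dendritic cells, 1.58 for proliferation, 1.65 for erythroid cells and platelets and 1.94 for CD4 and FOXP3 T cells. The genes at the highest CPM in DKO included H2-Aa (398 CPM in WT against 1278 CPM in DKO) and Itgax (40.5 CPM in WT against 100.2 CPM in DKO) for dendritic cells, Zbtb7b (67.8 CPM in WT against 101 CPM in DKO) and Cd4 (17.4 CPM in WT against 79.0 CPM in DKO) for CD4 T cells, Jchain (189 CPM in WT against 389 CPM in DKO) and Xbp1 (87.9 CPM in WT against 110.4 CPM in DKO) for plasma cells, and Ppbp (8.62 CPM in WT against 11.6 CPM in DKO) and Itga2b (3.10 CPM in WT against 9.30 CPM in DKO) for platelets. The T cell receptor genes had a median of -0.21.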

How the data were processed

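Total RNA of sorted spleen cells was sequenced in 1 WT and 1 DKO library, with groups from the genotype label. Per the labels' protocols, libraries were made with an Illumina total RNA kit. Values are raw counts of reads per gene, as deposited by the authors. Tools named in the submitters' processing notes are bcl2fastq, TopHat2 2.0.8b and HTSeq, with the build mm9; their roles, the annotation and the strand setting were not given in the sources used here. In each file 5 rows that name no gene were removed: non-unique alignments (66.4% of the WT total and 64.8% of the DKO total), reads outside genes (4.89% and 4.45%), ambiguous reads (0.209% and 0.212%) and 2 empty ones.

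The counts were scaled by TMM (edgeR 4.0.16 in R 4.3.3, factors 0.983 and 1.02) to CPM, and log2 ratios had a prior count of 0.5 added. The interval of a ratio is the Clopper-Pearson 95% interval of a gene's DKO share (scipy 1.17.1), and that of an odds ratio is a Wald interval. Both cover counting error only, since PCR copies of a molecule cannot be recognised. No test was possible between single libraries. Genes that reached 1 CPM in either library were measured, and a gene was called at a log2 ratio of 1.5-fold or 2-fold with an interval that left out 1. The scripts were tested on simulated data.

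The 40 members, the other lists and the limits were chosen with earlier results of these data known. The text names all members, per pathway list the 4 genes with the largest absolute log2 ratio that reach 5 CPM, per other-cell list the 2 genes with the highest DKO CPM, and Tgfbr2, Eomes, Cd8a, Cd8b1 and Il2rb; exceptions are marked, and some genes that this rule names are left out of the text. Of the listed genes 9 were found by an older symbol and 1 was not found. Exon lengths and overlaps came from GENCODE vM21 on GRCm38, which is not mm9, so values per kb are approximate; promoters came from RefSeq (GRCm38.p6). Alternatives were scaling by total counts, DESeq2 1.42.0 size factors or T cell receptor genes, no minimum or 5 CPM, a prior count of 5 and, chosen after seeing the data, leaving out members that overlap an opposite-strand exon.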

Additional observations from a re-analysis of the deposited data

How the results depend on the processing

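With T cell receptor genes as the scale, the pathway's median log2 ratio turned from -0.10 to 0.11, 2 genes (Deptor and Pik3ap1) were 1.5-fold higher in place of 1, and 0 lower in place of 2; over all genes 557 were 1.5-fold lower in place of 987. Of log2 ratios whose interval had left out 1, those of Pik3cd (0.031), Pik3r1 (0.15), Pik3r5 (0.026), Inpp5d (0.064), Rptor (0.13), Akt1s1 (0.0039), Gsk3a (0.091) and Prkab1 (0.063) turned positive, and 30 others moved beyond their interval. With total counts 1 gene, Ddit4, was 1.5-fold lower, Pik3ip1 changed sign, and 38 of 40 log2 ratios stayed within their interval; with DESeq2 size factors and with a prior count of 5 all 40 did. A minimum of 5 CPM removed Deptor, leaving 0 genes 1.5-fold or 2-fold higher. Among the 26 genes that overlap no opposite-strand exon, 0 were 1.5-fold or 2-fold higher and 1, Ddit4, was 1.5-fold lower. No paired analysis was possible because each genotype has 1 library, and for that reason none could be left out. Variation between animals was not measured, and differences inside a counting interval were not detectable at this depth.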
